A study of Rattus norvegicus with 12 samples.

Results

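A-998679 at 100 mg/kg/day was compared with vehicle in rat liver, by gene expression on Affymetrix RAE230 2.0 arrays. The comparison took in the 3 livers dosed at 100 mg/kg and the 3 vehicle livers, which are 6 of 12 arrays. All probe sets with a value in each of these 6 arrays were included, 21706 of 29176 on the array, and they covered 11325 of 13643 genes with a probe set of their own. Male Sprague-Dawley rats were dosed by oral gavage once daily for 5 days and fasted overnight after the last dose, so that both groups were sampled in the fasted state. Vehicle rats were given hydroxypropylmethylcellulose (0.2%, 10 ml/kg), which holds the compound in suspension. The other 6 rats received 30 or 200 mg/kg A-998679 and share the same vehicle rats. The titles and the study give the top dose as 200 mg/kg, while another label of those rats gives 300 mg/kg.

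The aryl hydrocarbon receptor (AhR) is a ligand-activated transcription factor of hepatocytes and many other cells. On binding a ligand it moves to the nucleus, pairs with the protein made from Arnt and binds a short DNA element near genes of drug metabolism. Its classical targets are the Cyp1a oxidases, together with conjugating and reducing enzymes such as Nqo1, glutathione transferases and aldehyde dehydrogenases, a group known as the AhR battery. Many of the same conjugating enzymes are also under the control of Nrf2, which responds to electrophiles, and of CAR and PXR, the receptors behind Cyp2b and Cyp3a induction.

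Values are log2 intensities throughout, and differences are means at 100 mg/kg minus means of vehicle rats on that scale, unless a fold is given. Of all values in the 6 arrays 12.1% were empty. Empty values lay mostly in dim probe sets: the median log2 intensity was 5.64 in the probe sets compared and 2.75 for the values of the others. Array medians lay between 5.22 and 5.23. Pairs of arrays from one group had Pearson correlations of 0.909 to 0.930, and pairs from both groups 0.906 to 0.929, so that the 2 groups were not separated by overall profile, and no array stood apart. Over genes at or above the median level, the median SD between rats was 0.13 on the log2 scale in vehicle rats and 0.12 at 100 mg/kg, and somewhat wider (0.15 and 0.16) in the other dosed groups. Of 12 hepatocyte markers 11 were in the comparison, all bright (mean level at least 10.55), with differences between -0.072 and 0.22. In whole liver, fewer cells of a type and less RNA per cell cannot be told apart.

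Gsta3 and Cyp1a2 rose at 100 mg/kg and were the 2 genes that passed the test (limma, Benjamini-Hochberg adjusted p of at most 0.05), 0.0177% of the 11325 genes. Gsta3, an alpha-class glutathione transferase, had levels of 4.34, 3.98 and 4.41 in vehicle rats 1, 2 and 3 and of 7.77, 8.53 and 7.23 in the rats dosed at 100 mg/kg. The lowest treated rat was thus well above the highest vehicle rat. Its mean went from 4.24 ± 0.23 to 7.84 ± 0.66 (SD, n = 3 each), a 12.1-fold rise (log2 difference 3.60, standard error 0.32, limma adjusted p = 9.30e-04). The vehicle mean is dim, near the 25th percentile of all values (3.84). The size of this fold can therefore depend on the background correction, which was not given. Cyp1a2, the Cyp1a oxidase that untreated liver already expresses, had levels of 10.92, 10.77 and 11.62 in vehicle rats and 12.62, 12.61 and 12.59 in treated rats. The 3 treated rats lay within 0.031 of each other, while vehicle rat 3 was closer to them than the other vehicle rats. The rise of Cyp1a2 was 2.85-fold (log2 difference 1.51, standard error 0.17, limma adjusted p = 0.00766). For both genes the 2-sided exact permutation test gave p = 0.1, the smallest that 3 rats against 3 allow. Gsta3 kept its call whichever of the 12 rats was omitted from the fit (adjusted p at most 0.0104). Cyp1a2 kept it in 9 of the 12 cases, and its adjusted p was 0.0771, 0.0712 and 0.0702 without vehicle rat 1, treated rat 1 or treated rat 2. Alpha-class transferases are close copies of each other, and hybridization of Gsta5 or another member to the Gsta3 probe set cannot be told apart from Gsta3 itself.

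No gene fell past the adjusted threshold. At a nominal p, which is not adjusted, under 0.05 in limma, 456 genes (4.03%) were higher and 350 (3.09%) lower, and the methods' t-test called 0 probe sets after Benjamini-Hochberg adjustment. All 3 treated rats were above all 3 vehicle rats in 923 genes (8.15%) and below them in 730 genes (6.45%). These shares are the background against which the gene groups are read. All lists were chosen with earlier results of these data known, so their shares are not taken as independent evidence. The median difference over all genes was 0.011, with 51.9% of genes higher and 48.0% lower in the mean. In the plot of difference against level, Gsta3 and Cyp1a2 stand apart from genes of like level, and dim genes scatter over several log2 units.

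**Figure D1:**
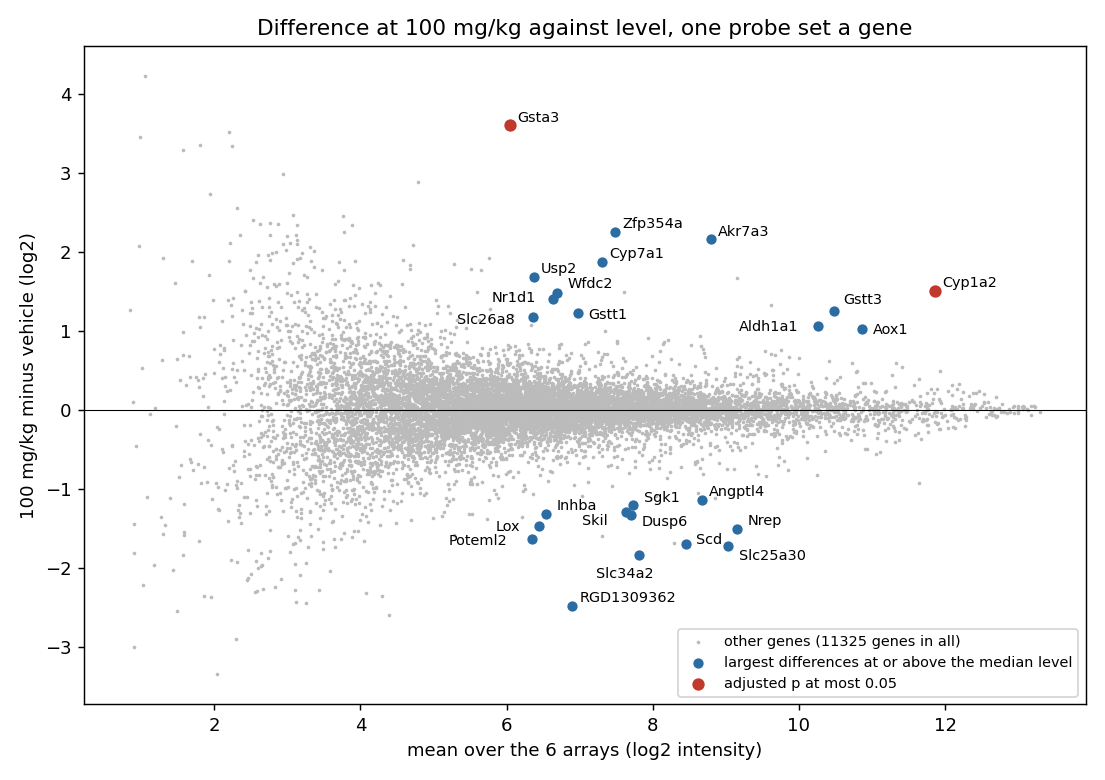
Difference between 100 mg/kg and vehicle (log2, y axis) against the mean log2 intensity over the 6 arrays (x axis), 1 point a gene. Gsta3 at 3.60 and Cyp1a2 at 1.51 are the genes with an adjusted p of at most 0.05 (red), and blue points are the 12 largest differences in each direction among genes at or above the median level with a nominal p under 0.05 and groups that do not overlap.

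The bases before the transcription start of the genes that rose, and of other AhR battery genes described further on, were read from RefSeq promoters of the GRCr8 assembly, 250 bases up to the start. They are shown because AhR with Arnt binds a DNA element with the core GCGTG, and Nrf2 the antioxidant response element, with the core TGACNNNGC. Matches of these 2 motifs on either strand are in capitals, an opposite-strand match appearing as its reverse complement. The motifs can overlap each other, but no printed match does. Gsta3 has 2 starts, on chromosome 9 (plus strand, chr9:31154739-31154988 and chr9:31166793-31167042). Cyp1a2 lies on the minus strand of chromosome 8 (chr8:66978150-66978399), Aldh1a1 on the plus strand of chromosome 1 (chr1:227537370-227537619), Ahr on the minus strand of chromosome 6 (chr6:57998902-57999151) and Nqo1 on the minus strand of chromosome 19 (chr19:52220268-52220517). Arnt, on the plus strand of chromosome 2 (chr2:185686453-185686702), and Nfe2l2, on the minus strand of chromosome 3 (chr3:81029000-81029249), are the 2 battery genes that were lower at a nominal p under 0.05. Mgst2 and Gstt1 are named here without a sequence.
Gsta3, first start: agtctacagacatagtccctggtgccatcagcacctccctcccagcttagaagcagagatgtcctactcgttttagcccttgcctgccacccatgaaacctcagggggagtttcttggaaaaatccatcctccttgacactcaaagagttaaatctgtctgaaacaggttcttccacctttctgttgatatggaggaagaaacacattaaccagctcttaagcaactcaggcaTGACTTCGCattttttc
Gsta3, second start: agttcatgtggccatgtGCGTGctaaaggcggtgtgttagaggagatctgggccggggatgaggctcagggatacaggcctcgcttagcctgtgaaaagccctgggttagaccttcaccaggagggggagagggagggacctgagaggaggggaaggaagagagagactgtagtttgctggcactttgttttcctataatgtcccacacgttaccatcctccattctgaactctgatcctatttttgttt
Cyp1a2: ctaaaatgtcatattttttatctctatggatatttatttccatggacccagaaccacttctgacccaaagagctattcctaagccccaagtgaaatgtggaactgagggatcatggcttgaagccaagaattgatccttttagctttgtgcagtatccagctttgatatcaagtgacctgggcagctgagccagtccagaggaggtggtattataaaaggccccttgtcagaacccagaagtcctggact
Nqo1: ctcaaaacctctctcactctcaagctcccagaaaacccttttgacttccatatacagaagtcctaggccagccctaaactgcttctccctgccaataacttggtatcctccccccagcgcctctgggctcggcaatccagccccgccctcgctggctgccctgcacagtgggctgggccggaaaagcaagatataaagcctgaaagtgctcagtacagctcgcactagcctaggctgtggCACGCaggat
Aldh1a1: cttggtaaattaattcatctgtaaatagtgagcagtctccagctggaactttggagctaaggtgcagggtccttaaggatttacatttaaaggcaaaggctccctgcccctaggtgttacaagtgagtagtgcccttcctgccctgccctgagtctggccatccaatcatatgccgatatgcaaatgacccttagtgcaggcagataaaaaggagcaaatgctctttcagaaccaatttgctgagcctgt
Ahr: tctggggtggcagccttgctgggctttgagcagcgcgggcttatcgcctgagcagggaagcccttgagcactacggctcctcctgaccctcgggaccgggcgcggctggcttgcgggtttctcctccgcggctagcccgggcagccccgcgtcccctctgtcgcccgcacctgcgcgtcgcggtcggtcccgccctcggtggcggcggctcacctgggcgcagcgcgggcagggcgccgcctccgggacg
Arnt: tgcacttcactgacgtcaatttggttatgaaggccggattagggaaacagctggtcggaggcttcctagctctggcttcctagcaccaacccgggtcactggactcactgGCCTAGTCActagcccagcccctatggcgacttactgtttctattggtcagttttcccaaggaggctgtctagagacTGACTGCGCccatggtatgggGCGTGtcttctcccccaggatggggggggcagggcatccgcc
Nfe2l2: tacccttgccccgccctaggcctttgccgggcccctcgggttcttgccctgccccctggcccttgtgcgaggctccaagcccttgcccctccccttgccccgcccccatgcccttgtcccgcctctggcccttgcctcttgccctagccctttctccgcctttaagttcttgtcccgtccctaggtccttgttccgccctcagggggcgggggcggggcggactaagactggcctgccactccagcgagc

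The first start of Gsta3 had a TGACNNNGC match 17 to 9 bases before the start, and the second had a GCGTG match 233 to 229 bases before it. Nqo1 had a GCGTG match on the opposite strand, 10 to 6 bases before the start. Arnt had 1 GCGTG match, 42 to 38 bases before the start, and 2 TGACNNNGC matches, at 140 to 132 and 63 to 55 bases before it. No match of either motif was found in these windows of Cyp1a2, Aldh1a1, Ahr and Nfe2l2, which says only that the letters are not in these 250 bases. Of all 33469 promoters of the same length 25.9% held GCGTG and 10.1% held TGACNNNGC. Of the 12 genes with the largest higher differences described further on, 10 had a promoter in the table, and 3 of them held GCGTG and 1 TGACNNNGC. Of the 12 with the largest lower differences 9 had one, with GCGTG in 3 and TGACNNNGC in 1.

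Cyp1a1 and Abcc3 stood outside the comparison because their values were empty in vehicle rats. Cyp1a1, the Cyp1a oxidase that is nearly silent in untreated liver, was measured by 1 probe set with no value in any vehicle rat, 4.58 and 4.07 in rats 1 and 2 at 100 mg/kg and no value in rat 3. Abcc3, an efflux pump of the hepatocyte basolateral membrane that exports glucuronides, had no value in vehicle rats and 4.91, 6.65 and 5.45 at 100 mg/kg. Of values in probe sets with a mean log2 intensity of 4 to 5, 2.85% were empty, and 0.411% at 5 to 6. In all, 49 probe sets had a value in all 3 treated rats and in no vehicle rat, and 43 had the reverse. The brightest of the first kind were Abcc3, Ncaph (a condensin subunit, mean 4.72), LOC100912991 (3.52), Ece2 (3.42), Rbfox1 (3.37) and Lrrc4 (3.33). The brightest of the second kind with a gene name were Rtn4rl2 (5.07), Gpsm3 (4.17), Ccnl2 (4.09), Gpihbp1 (3.44), Nlrp6 (3.21) and Tbrg4 (2.84). Reasons for an empty value were not given in the sources used here, and no fold is given for these genes.

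The genes of the AhR battery were mostly higher at 100 mg/kg. The list holds the genes displayed for AhR in these same rats by the study, which does not state how it chose them, so its direction is not taken as independent evidence. Of its 20 genes 15 were in the comparison. Their median difference was 0.51, against 0.011 over all genes, and 11 were higher in the mean. The adjusted test was passed by Gsta3 and Cyp1a2, while 9 were higher and 2 lower at a nominal p under 0.05 in limma. Aldh1a1, which oxidizes retinal and other aldehydes, had levels of 9.73, 9.94 and 9.51 in vehicle rats and 10.93, 10.78 and 10.66 in treated rats. All treated rats were above all vehicle rats, by 1.06 in the mean (standard error 0.18, limma adjusted p = 0.151). Mgst2, a microsomal glutathione transferase, had 9.03, 9.23 and 9.53 against 9.96, 10.04 and 9.93, a difference of 0.71 (limma adjusted p = 0.322). Ahr, the receptor itself, was at 5.51, 4.75 and 4.26 in vehicle rats and 6.93, 5.77 and 6.31 at 100 mg/kg, with no overlap but a wide spread in both groups. Its difference was 1.5 (95% interval 0.73 to 2.26, limma adjusted p = 0.382). Nqo1, a quinone reductase, had 8.30, 7.57 and 8.49 in vehicle rats and 8.84, 9.11 and 8.87 in treated rats, a difference of 0.82 (limma adjusted p = 0.573). The groups did not overlap, and vehicle rat 2 was the lowest of the 6.

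Of the 4 battery members with a lower mean, Arnt and Nfe2l2 were the 2 at a nominal p under 0.05, and the others, Cyp1b1 (-0.014) and Faslg (-0.12), named after their values were seen, had groups that overlapped. Arnt, the partner of AhR in DNA binding, had levels of 5.02, 3.89 and 4.33 in vehicle rats and 3.46, 3.60 and 2.64 in treated rats, a difference of -1.18 (95% interval -2.09 to -0.27, limma adjusted p = 0.679). These are dim values, for which the spread between rats is wide. Nfe2l2, which encodes Nrf2, had 9.39, 9.28 and 9.27 against 8.73, 9.01 and 9.0, a difference of -0.40 (limma adjusted p = 0.659). Neither Arnt nor Nfe2l2 passed the test. Of 9 textbook AhR targets 6 were in the comparison, with a median of 0.29, and beyond Cyp1a2 and Nqo1 none was higher at a nominal p under 0.05. Tiparp, a negative regulator of AhR, had 7.11, 7.21 and 7.03 against 6.96, 7.13 and 6.67, and Cyp2s1, another AhR-regulated oxidase, 4.88, 5.36 and 4.65 against 4.82, 4.90 and 4.30. The groups overlapped in both. A second, dimmer probe set of Tiparp had 5.45, 5.47 and 5.64 in vehicle rats and 4.80, 4.65 and 4.50 in treated rats, a difference of -0.88 in which every treated rat was lower (limma adjusted p = 0.741), so that the 2 probe sets differed.

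Glutathione transferases were mostly higher at 100 mg/kg, 14 of 19 in the mean. Of 24 listed genes 19 were in the comparison, with a median difference of 0.37. Of these 1 rose, 11 were higher and 0 lower at a nominal p under 0.05, and in 10 the treated rats were all above the vehicle rats, a share of 52.6% against 8.15% of all genes. The theta-class members Gstt3 and Gstt1 had 9.86, 9.52 and 10.19 against 10.40, 11.32 and 11.61 and 6.58, 5.90 and 6.61 against 6.92, 7.87 and 7.96. In both, rat 1 at 100 mg/kg was the lowest of the treated rats and near the highest vehicle rat. The differences were 1.25 and 1.22 (limma adjusted p = 0.382 and 0.411). The 5 members with a lower mean, which are named after their values were seen, were the zeta and omega genes Gstz1 (-0.12), Gsto1 (-0.033) and Gsto2 (-0.015) and the microsomal genes Mgst1 (-0.049) and Mgst3 (-0.013), and all but Gstz1 turned sign when 1 rat was omitted.

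Of 17 epoxide hydrolases and aldehyde or carbonyl reductases 15 were in the comparison, with a median of 0.21, 4 higher and 0 lower at a nominal p under 0.05. Akr7a3, which reduces aflatoxin dialdehyde, had 7.59, 7.69 and 7.87 in vehicle rats and 9.41, 10.74 and 9.47 in treated rats. Rat 2 was the highest by more than 1 log2 unit, and the mean difference was 2.16 (standard error 0.35, limma adjusted p = 0.122). Its relative Akr7a2 had 9.26, 9.14 and 9.14 against 9.63, 9.71 and 9.77, a tight difference of 0.52 (adjusted p = 0.314). Ephx1, microsomal epoxide hydrolase, had 11.05, 11.16 and 10.89 against 11.36, 11.97 and 11.56, and Akr1c14, a hydroxysteroid dehydrogenase, 11.45, 11.34 and 11.44 against 11.80, 11.68 and 11.71. Rat 2 was again the highest for Ephx1. Neither passed (adjusted p = 0.382 and 0.535).

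Of 21 genes of glucuronidation and UDP-glucuronate supply 9 were in the comparison, none of them a Ugt1a gene, and all 9 were higher in the mean (median 0.29, 3 at a nominal p under 0.05). Cryl1, a dehydrogenase of the glucuronate pathway, had 3.79, 5.28 and 4.0 against 6.03, 6.12 and 6.47, a difference of 1.85 (adjusted p = 0.358). Ugdh, which makes UDP-glucuronate, had 9.67, 9.74 and 9.87 against 10.10, 10.27 and 10.27. Ugt2b1, a transferase of that substrate, had 9.28, 9.07 and 9.60 against 10.05, 10.66 and 9.34, with rat 3 within the range of vehicle rats. Of 19 aldehyde dehydrogenases 17 were in the comparison (median 0.13, 3 higher and 0 lower at a nominal p under 0.05). Besides Aldh1a1, the folate enzymes Aldh1l1 and Aldh1l2 had differences of 0.62 and 0.47 without overlap, whereas mitochondrial Aldh1b1 was lower in all 3 treated rats (-0.58).

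Of 32 Nrf2 targets 25 were in the comparison, with a median of 0.10, 8 higher and 1 lower at a nominal p under 0.05. In 11 (44.0%) the treated rats were all above the vehicle rats, against 8.15% of all genes, and in 1 all below. Those with the smallest p were Akr7a3, Ephx1, Nqo1 and Ugdh, all of which other lists here also hold. The gene that was lower, named after its values were seen, was Osgin1 (-0.82). Of the 13 targets whose groups overlapped, 4 that act in glutathione synthesis, heme breakdown or redox repair are also named after their values were seen, Gclc (-0.21), Gclm (0.072), Hmox1 (-0.068) and Srxn1 (-0.24). Of 26 CAR and PXR targets 17 were in the comparison (median 0.34, 5 higher and 0 lower), and those 5, Akr7a3, Aldh1a1, Ephx1, Abcb1a and Ugt2b1, encode no Cyp enzyme. Abcb1a, a drug efflux pump, had 6.28, 5.87 and 6.28 against 6.62, 6.56 and 6.71. Of 50 Cyp2, Cyp3 and Cyp4 genes 36 were in the comparison, and their median was 0.016, with 1 higher and 1 lower at a nominal p under 0.05. The former was Cyp2j4, an epoxygenase of arachidonic acid, at 9.21, 9.55 and 9.51 against 9.75, 9.88 and 9.98, and the latter Cyp2f4, at 9.0, 8.78 and 8.80 against 8.68, 8.38 and 8.62. Cyp3a23-3a1, a classical PXR target, had 12.11, 11.84 and 12.13 in vehicle rats and 12.14, 12.32 and 12.42 in treated rats, a difference of 0.27 (95% interval -0.047 to 0.58). Its groups did not overlap, with the lowest treated rat (12.14) just above the highest vehicle rat (12.13).

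Of 26 hepatic transporters 19 were in the comparison, and 14 of them were lower in the mean (median -0.071, 1 higher and 3 lower at a nominal p under 0.05). Slc22a7, an uptake carrier of organic anions, had 10.29, 10.18 and 10.17 against 9.94, 9.85 and 9.86, and its relative Slc22a8 10.26, 10.01 and 10.06 against 9.65, 9.24 and 9.51. Every treated rat was below every vehicle rat in both, with differences of -0.33 and -0.64 (adjusted p = 0.605 and 0.771). A second probe set of Slc22a8 had a difference of -0.40 with groups that overlapped. Sulfotransferases and methyltransferases, 18 of 22 in the comparison, had a median of 0.067, with Sult1b1 higher (0.40) and Sult1c2 lower (-0.59) at a nominal p under 0.05. From the epoxide hydrolases to the sulfotransferases, no gene of these lists passed the adjusted test.

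Xenobiotic and hepatocyte transcription factors differed in both directions. Of 28 listed 25 were in the comparison, with a median of -0.11, 3 higher and 8 lower at a nominal p under 0.05. In 8 (32.0%) the treated rats were all below the vehicle rats, against 6.45% of all genes, and in 5 (20.0%) all above them, against 8.15%. In the mean 11 were higher and 14 lower. Ahr was on the higher side, and so was Nr1i3, which encodes CAR, at 7.94, 7.48 and 7.5 in vehicle rats and 8.70, 7.95 and 8.33 in treated rats. Nr1h4, which encodes the bile acid receptor FXR, was at 8.66, 8.32 and 8.44 against 7.75, 8.17 and 8.09. Adjusted p was 0.576 for Nr1i3 and 0.572 for Nr1h4.

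The largest differences over all genes, those of drug metabolism included, were found by a rule. It takes genes at or above the median level (log2 6.19), with a nominal p under 0.05 and no overlap. The rule was met by 236 genes on the higher and 201 on the lower side, and the 12 largest of each are described. Other than Cyp1a2 none of the 24 passed the adjusted test (adjusted p 0.122 to 0.759). Zfp354a, a zinc finger protein, was the largest on the higher side, at 6.19, 5.56 and 7.33 in vehicle rats and 9.11, 8.14 and 8.60 in treated rats. Cyp7a1, the rate-limiting enzyme of bile acid synthesis, had 7.24, 5.38 and 6.48 against 8.19, 8.23 and 8.31. The 3 treated rats lay close together for Cyp7a1, and the vehicle rats did not. The others were Akr7a3, Usp2 (1.69), Wfdc2 (1.48), Nr1d1 (1.41), Gstt3, Gstt1, the anion transporter gene Slc26a8 (1.17), Aldh1a1 and the aldehyde oxidase gene Aox1 (1.03). Aox1 was at 10.79, 9.05 and 11.20 in vehicle rats and 11.27, 11.45 and 11.42 in treated rats, Wfdc2 at 4.26, 6.37 and 7.22 against 7.78, 7.22 and 7.28, and Slc26a8 at 4.87, 6.07 and 6.39 against 6.78, 7.2 and 6.86. In all 3 genes 1 vehicle rat was far below the others, which lay closer to the treated rats. Without it, vehicle rat 2 for Aox1 and vehicle rat 1 for Wfdc2 and Slc26a8, the differences were 0.38, 0.63 and 0.72.

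On the lower side RGD1309362, for which RefSeq gives the synonym Ifgga1, came first, at 8.12, 8.01 and 8.29 in vehicle rats and 5.66, 5.51 and 5.82 in treated rats. Both groups were tight, and the difference was -2.48 (standard error 0.76, adjusted p = 0.583). With only these 2 groups in the fit its adjusted p was 6.42e-04. Of the 12 fits without 1 rat it passed in 1, that without rat 3 at 200 mg/kg (limma adjusted p = 0.00574). The gene was also lower at the neighbouring doses against the same vehicle rats, with differences of -2.63 (30 mg/kg) and -1.17 (200 mg/kg). Slc34a2, a sodium-phosphate cotransporter, had 9.5, 8.77 and 7.93 against 6.94, 6.54 and 7.23. Skil, a repressor of TGF-beta signalling, had 8.27, 8.11 and 8.44 against 6.86, 7.21 and 6.87 (limma adjusted p = 0.122). The adjusted p of Skil was 0.0441 with only these 2 groups in the fit and 0.0433 without rat 2 at 200 mg/kg. Sgk1, a kinase induced by glucocorticoids, had 9.0, 8.66 and 7.34 against 7.16, 7.14 and 7.07, where vehicle rat 3 was close to the treated rats. The standard errors of these genes come from the spread in all 4 groups. Inhba, the activin A subunit, had -1.32 by its brightest probe set and 0.11 by another, and Dusp6, a phosphatase of ERK, had -1.34, -0.98 and 0.61 by 3 probe sets. Lox, which cross-links collagen, had -1.47 and -2.01, and the mitochondrial carrier gene Slc25a30 -1.72 and -1.74. The remaining genes were Scd, Angptl4, Poteml2 (-1.64) and Nrep (-1.5).

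**Figure D2:**
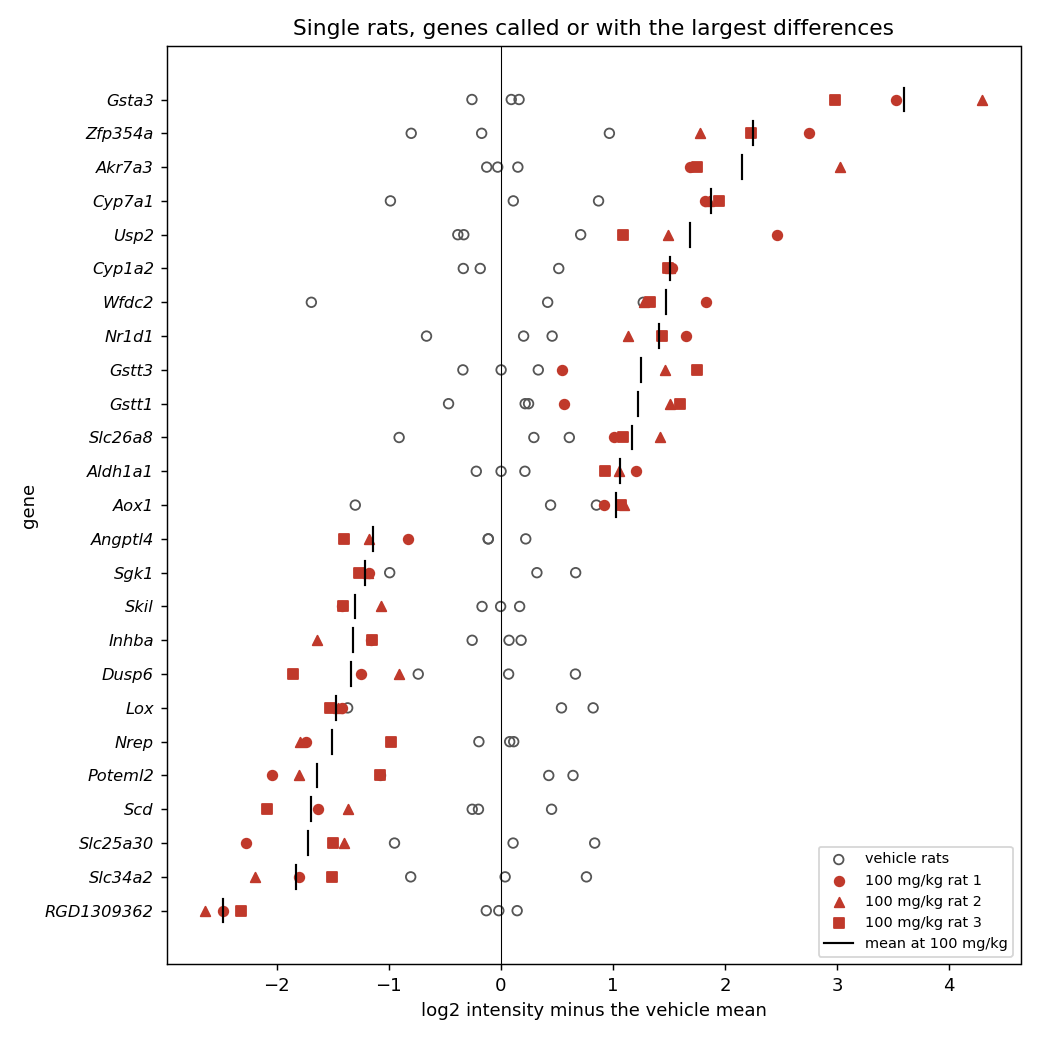
Log2 intensity of single rats minus the vehicle mean (x axis) for the 2 genes that passed and the largest differences in each direction (y axis). Open circles are vehicle rats, filled symbols the 3 rats at 100 mg/kg, and the black bar their mean. Treated rats of Gsta3 lie between 2.99 and 4.29, while Cyp1a2 spans 1.49 to 1.52 in treated rats.

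Several genes of fat oxidation and storage were lower at 100 mg/kg. Of 36 PPAR alpha targets, genes of the receptor that drives fatty acid oxidation in fasting, 31 were in the comparison, with a median of -0.09. In 8 (25.8%) the treated rats were all below the vehicle rats and in 0 all above, against 6.45% and 8.15% of all genes, while 1 was higher and 3 lower at a nominal p under 0.05. Angptl4, an inhibitor of lipoprotein lipase, had 9.13, 9.47 and 9.13 against 8.41, 8.06 and 7.85. Pdk4, which holds back glucose oxidation, had 8.93, 9.84 and 9.47 against 8.21, 8.57 and 8.11, and a second probe set had a difference of -0.69 that also did not overlap. Plin2, a lipid droplet coat protein, had 11.45, 11.28 and 11.25 against 10.38, 10.95 and 10.98. Cd36, a fatty acid carrier, was on the other side (7.09, 6.60 and 6.38 against 7.75, 7.86 and 7.03, with rat 3 within the vehicle range). Adjusted p was 0.382, 0.679, 0.696 and 0.72 in the order named.

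Fatty acid and triglyceride synthesis, 19 of 20 genes, had a median of -0.011 and no common direction. Scd, which desaturates stearate, was at 9.04, 9.10 and 9.75 in vehicle rats and 7.67, 7.93 and 7.21 in treated rats, a difference of -1.69 (adjusted p = 0.552). The NADPH-forming malic enzyme Me1 was higher in all treated rats (7.14, 7.30 and 7.29 against 7.56, 7.82 and 7.61), and by a second probe set the difference was 0.22 with an overlap. Of 25 genes of cholesterol synthesis 20 were in the comparison (median -0.043), and Cyp51 was the only one with a nominal p under 0.05, at 8.31, 8.17 and 8.82 against 8.10, 7.94 and 7.67. Of 29 genes of gluconeogenesis, glycolysis and glycogen 23 were in the comparison (median 0.081), 3 higher and 3 lower at a nominal p under 0.05, among them Gys2, glycogen synthase, at 0.27 and Ldha, lactate dehydrogenase, at -0.23. Of 23 genes of bile acid synthesis and its regulators 20 were in the comparison (median 0.038, 4 higher and 1 lower). Beside Cyp7a1, Cyp27a1 of the alternative pathway was at 10.47, 10.5 and 10.63 in vehicle rats and 11.02, 11.04 and 10.99 in treated rats. In both Cyp7a1 and Cyp27a1 the treated rats were closer to each other than the vehicle rats, and adjusted p was 0.578 and 0.477.

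Clock genes differed in both directions. Of 23 genes 16 were in the comparison, with a median of -0.074, 4 higher and 3 lower at a nominal p under 0.05. Over all genes 4.03% were higher and 3.09% lower at that p. In 3 of the 16 clock genes the treated rats were all above the vehicle rats, and in 4 all below. Over all genes the shares without overlap were 8.15% above and 6.45% below. Nr1d1, which encodes the clock repressor REV-ERB alpha, was at 6.13, 6.39 and 5.26 in vehicle rats and 7.58, 7.06 and 7.37 in treated rats. Dbp, a clock-driven activator, was at 4.79, 4.13 and 5.39 against 7.26, 6.01 and 6.34, and Usp2, a deubiquitinase with a daily rhythm in liver, at 5.20, 5.15 and 6.24 against 8.0, 7.03 and 6.63. In all of these the treated rats were above the vehicle rats. Nfil3, which competes with Dbp for the same DNA sites, was at 7.28, 7.38 and 7.53 against 6.27, 6.44 and 6.62. None passed the adjusted test (adjusted p 0.323 for Nr1d1, 0.382 for Nfil3, 0.618 for Dbp and 0.678 for Usp2). The hour at which each rat was killed was not given in the sources used here, and its part in these values was not tested.

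Small differences of the same sign were seen in groups with tight levels. Of 33 genes of the urea cycle and amino acid breakdown 32 were in the comparison, of which 26 were higher in the mean, 81.2% against 51.9% of all genes (median 0.15). Bhmt, which remethylates homocysteine, was at 11.25, 10.99 and 11.18 against 11.81, 11.66 and 11.60, and Asl, of the urea cycle, at 10.53, 10.96 and 10.65 against 11, 11.12 and 11.03. Of 31 proteasome subunits 30 were in the comparison and 28 were higher in the mean, 93.3% (median 0.12), with Psmc6 at 8.38, 8.55 and 8.87 against 9.11, 9.09 and 9.20. Of 50 respiratory chain genes 46 were in the comparison and 38 were higher in the mean, 82.6% (median 0.087). All treated rats were above all vehicle rats in 17 of these (37.0%), in 10 urea cycle and amino acid genes (31.2%) and in 8 proteasome subunits (26.7%), against 8.15% of all genes. At a nominal p under 0.05, 3 respiratory chain genes were higher, 6.5% against 4.03% of all genes. Ndufv2, of complex I, was at 9.92, 9.91 and 9.75 against 10.11, 10.08 and 10.08. These groups share arrays, so their genes are not independent, and no gene of these lists passed the adjusted test.

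**Figure D3:**
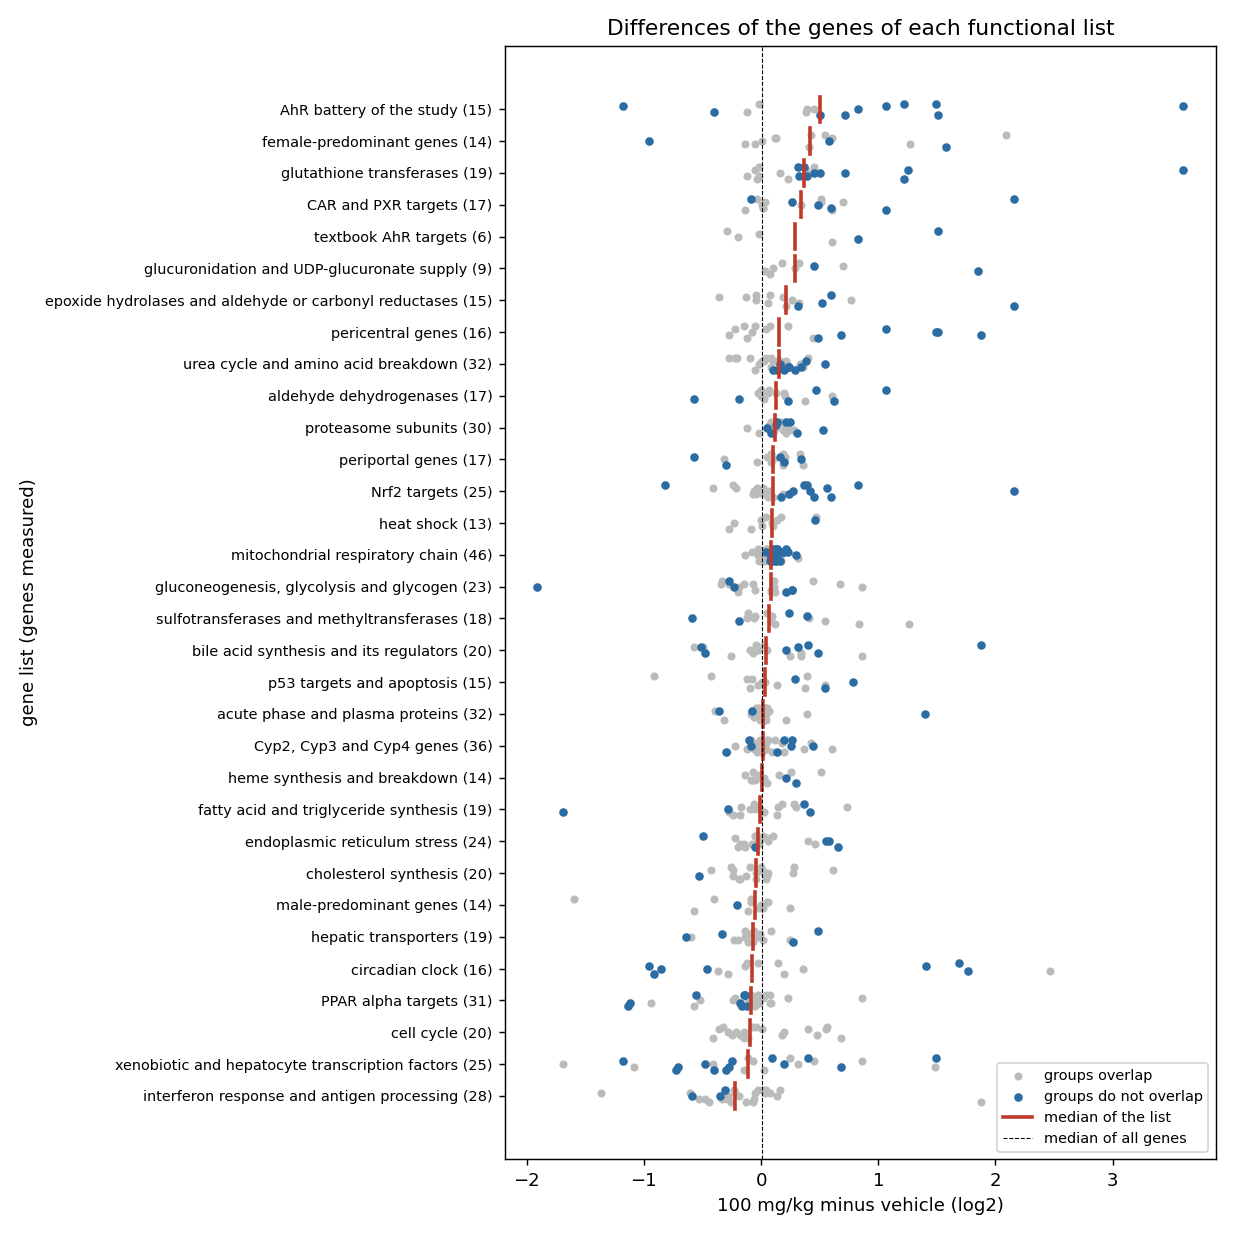
Difference at 100 mg/kg (log2, x axis) of each gene in the 32 functional lists (y axis, with the number of genes in the comparison), ordered by the list's median (red bar). Blue points are genes whose groups do not overlap. The AhR battery has the highest median, 0.51, and the interferon list the lowest, -0.23; the dashed line is the median of all genes, 0.011.

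Stress and growth genes differed little in the median of each group. Medians were -0.022 for endoplasmic reticulum stress (24 of 24 genes), 0.093 for heat shock (13 of 17), 0.03 for p53 targets and apoptosis (15 of 23), -0.093 for the cell cycle (20 of 35), 0.018 for acute phase and plasma proteins (32 of 37) and 0.0052 for heme synthesis and breakdown (14 of 16). Neither the cell cycle nor the heat shock list had a gene with a nominal p under 0.05. Of the p53 list 2 genes were higher and 0 lower at a nominal p under 0.05, 13.3% higher against 4.03% of all genes. In 3 (20.0%) all treated rats were above all vehicle rats, against 8.15% of all genes, and in 0 all below. In the mean 9 were higher and 6 lower. Ccng1, a p53 target, was at 6.53, 6.28 and 6.15 against 7.16, 7.14 and 7.01 (difference 0.78, limma adjusted p = 0.167). Sesn1 had a difference of 0.545 without overlap (limma adjusted p = 0.717). Within the stress list Ppp1r15a, a phosphatase subunit that restores translation, had 0.55 and Herpud1, of protein degradation at that membrane, 0.66, while Xbp1, a transcription factor of that response, had -0.5. Alas1, the rate-limiting enzyme of heme synthesis, was at 8.76, 9.41 and 10.0 against 10.22, 9.78 and 9.71, and the groups overlapped. The interferon and antigen processing list, 28 of 32 genes, had a median of -0.23 with 21 lower in the mean, 0 higher and 1 lower at a nominal p under 0.05. Rsad2, an antiviral protein, was at 6.51, 5.04 and 5.47 against 5.20, 4.20 and 3.53, with an overlap.

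Of 16 female-predominant genes 14 were in the comparison, with a median of 0.42, 2 higher and 1 lower at a nominal p under 0.05, and of 16 male-predominant genes 14, with a median of -0.053. Cux2, a factor of female liver, was at 4.11, 3.14 and 3.19 against 5.68, 4.37 and 5.13 and Cyp17a1, of steroid synthesis, at 7.80, 8.27 and 7.67 against 6.88, 6.85 and 7.14. Trim24, a nuclear receptor cofactor, had 2.09 with an overlap, and Stac3, of the male list, -1.60 with an overlap. Of 19 pericentral genes, those expressed around the central vein, 16 were in the comparison (median 0.15), and the 6 higher at a nominal p under 0.05 were Cyp1a2, Aldh1a1, Ahr, Cyp27a1, Nr1i3 and Cyp7a1, all of them also in lists above. Of 18 periportal genes 17 were in the comparison (median 0.10, 1 higher and 2 lower).

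Markers of other cell types in liver were read in the same way. The median difference was -0.12 over 9 of 12 Kupffer cell markers, 0.049 over 9 of 12 endothelial, 0.13 over 11 of 12 stellate and -0.06 over 9 of 15 lymphocyte markers. It was 0.48 over 4 of 10 cholangiocyte, 0.49 over 5 of 11 neutrophil, -0.19 over 4 of 10 erythroid and 0.30 over 6 of 11 exocrine pancreas markers, which were mostly dim. None passed the adjusted test. Over all genes 4.03% were higher and 3.09% lower at a nominal p under 0.05. Of these markers 3 were higher and 1 lower, no list holding more than 1. These were Hand2 of stellate cells (0.86), Lcn2 of neutrophils, also an acute phase gene (3.73, 4.41 and 4.85 against 5.14, 6.88 and 5.15), Prss1 of the pancreas (1.30) and Slc4a1, the anion exchanger of red cells (6.03, 5.60 and 4.77 against 3.76, 2.5 and 3.08, difference -2.35, adjusted p = 0.323). The other erythroid markers Hbb, Hemgn and Alas2 had -0.37, 0.061 and -0.018, and a second Slc4a1 probe set had -1.16 with an overlap. Krt19, a keratin of bile ducts, was higher in all treated rats (2.69, 3.69 and -0.19 against 4.06, 4.70 and 3.87), at values near the lower end of the scale. The log2 of the summed intensity of each list overlapped between the groups for Kupffer cell (11.22 to 11.68 in vehicle rats and 11.06 to 11.49 in treated rats), endothelial, stellate, cholangiocyte, lymphocyte, erythroid (11.65 to 12.42 and 11.08 to 11.88) and hepatocyte markers. It did not overlap for neutrophil markers (6.35 to 6.82 and 6.94 to 7.44) and exocrine pancreas markers (7.58 to 7.96 and 8.07 to 8.24). Sums of 9 marker lists were read, and of single genes 8.15% had all treated rats above all vehicle rats. The separation is therefore not read as a result about those cells. The part of these cells in the other results was not tested.

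The 3 treated rats did not rank alike across genes. Of the 13 genes with a rise or a largest higher difference, rat 1 had the largest value in 6, rat 2 in 4 and rat 3 in 3. Rat 2 was the highest for Gsta3, Akr7a3, Ephx1 and Ugt2b1, and rat 1 for Ahr, Nr1i3, Dbp and Usp2. The widest range among the named genes was that of Spp1, the gene of osteopontin, at 2.83 (6.03, 6.28 and 3.45 in rats 1, 2 and 3), followed by Lcn2 (1.74), Trim24 (1.71), Rsad2 (1.68), Amy2a3 (1.65) and Mcm7 (1.61). Vehicle rats spanned 2.48, 1.12, 2.72, 1.48, 3.38 and 0.29 for the same genes, so that Mcm7, a replication helicase subunit, was the one with tight vehicle values and a single low treated rat, rat 2 (6.25, 4.63 and 6.03).

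Between 100 mg/kg and the neighbouring doses no probe set passed. Between 100 and 30 mg/kg 0 of 20918 probe sets were called, 0% in each direction, with 611 (2.92%) higher and 591 (2.83%) lower at a nominal p under 0.05 in limma. Between 200 and 100 mg/kg 0 of 21048 were called, 0% in either direction, with 628 (2.98%) higher and 665 (3.16%) lower, and the methods' t-test also called 0 in both after adjustment. Gsta3 at 100 mg/kg was 1.99 above 30 mg/kg (95% interval 1.30 to 2.67, limma adjusted p = 0.223), and at 200 mg/kg 1.38 above 100 mg/kg (0.69 to 2.06, adjusted p = 0.545). The rats at 30 mg/kg had 5.70, 5.52 and 6.36 and those at 200 mg/kg 9.49, 9.46 and 8.70, so that neighbouring doses did not overlap. Cyp1a2 differed by 0.34 (-0.032 to 0.70) from 30 mg/kg and by -0.11 (-0.48 to 0.26) from 100 to 200 mg/kg. Akr7a3 was 1.77 above 30 mg/kg (1.0 to 2.53, adjusted p = 0.628) and 1.51 higher again at 200 mg/kg (0.74 to 2.27, adjusted p = 0.567), and Nqo1 was 0.031 from 30 mg/kg and 0.94 from there to the highest dose (adjusted p = 0.613).

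Each dose was also set beside the same vehicle rats, which the comparisons share. For Gsta3, Cyp1a2, Akr7a3, Aldh1a1 and Nqo1 the differences from vehicle were 1.62, 1.18, 0.39, 0.55 and 0.79 for the lowest dose, 3.60, 1.51, 2.16, 1.06 and 0.82 for 100 mg/kg, and 4.98, 1.40, 3.66, 1.42 and 1.77 for the highest. All of these genes passed at 200 mg/kg, where 0.225% of genes rose (limma adjusted p at most 0.00777). Zfp354a had a difference of 2.25 at 100 mg/kg and of 0.76 at 30 mg/kg, where rat 3 was above every rat at 100 mg/kg (5.85, 5.73 and 9.79). Its difference at the highest dose was 0.55. Ccng1 had 0.78 at 100 mg/kg against 0.32 at the highest dose, and Bhmt 0.55 against -0.02. Cyp1a1 had values of 10.41, 6.50 and 6.37 and Abcc3 of 7.77, 8.25 and 7.62 at 200 mg/kg, where at 30 mg/kg Abcc3 had 1 value, 4.57 in rat 3, and Cyp1a1 none.

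**Figure D4:**
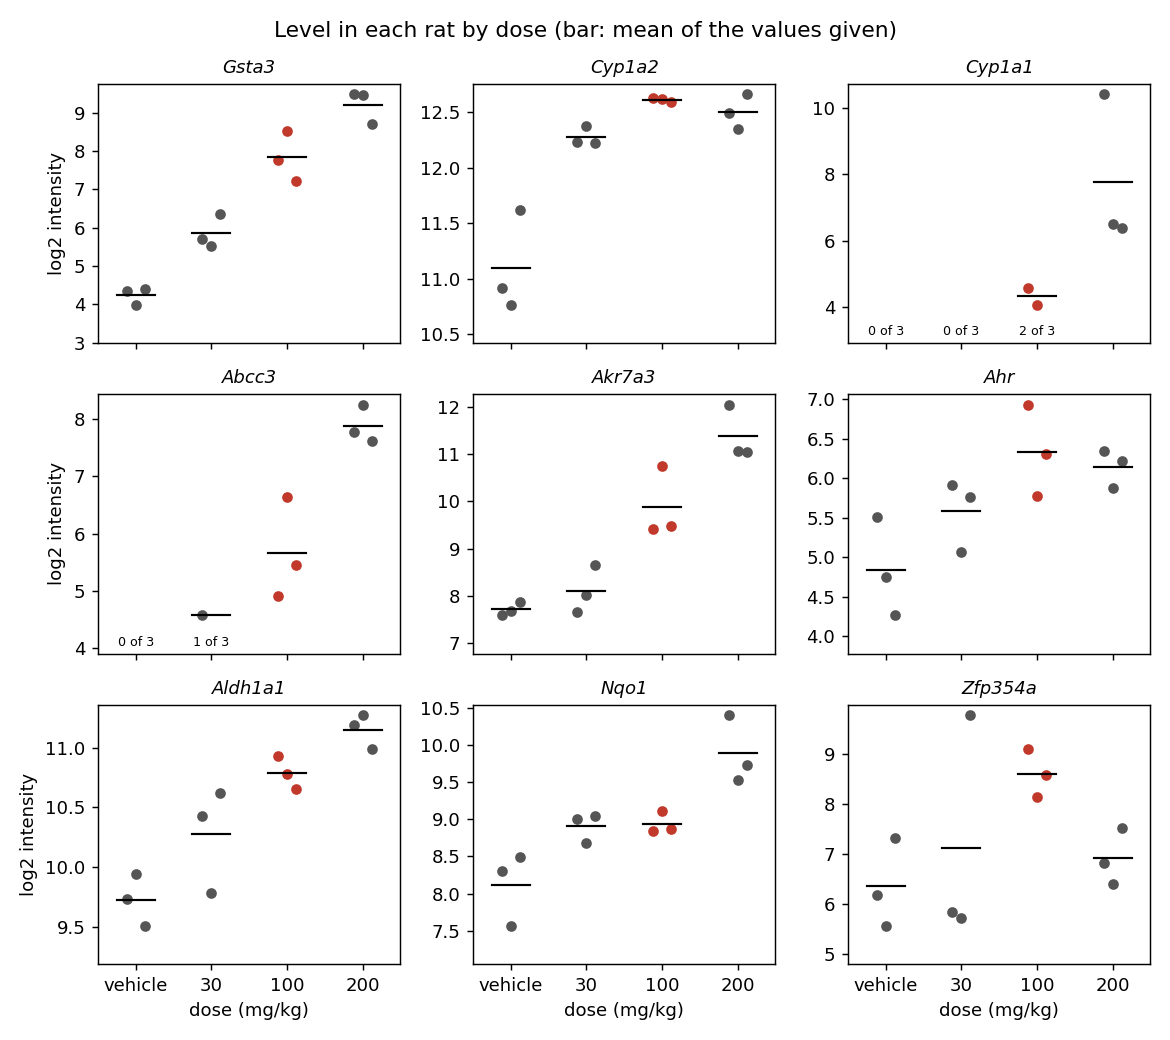
Log2 intensity (y axis, its own range in each panel) of 9 genes in each of the 3 rats by dose of A-998679 (x axis, mg/kg), with bars at the mean and the rats at 100 mg/kg in red; where fewer than 3 rats had a value, their number is given. Gsta3 lies between 7.23 and 8.53 at 100 mg/kg and does not overlap the other doses, while Cyp1a2 lies at 12.59 to 12.62 at 100 mg/kg, within its range at 200 mg/kg.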

How the data were processed

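Liver RNA of 12 male rats was hybridized to 1 Affymetrix RAE230 2.0 array each. As deposited by the authors, values are log10 intensities made with Rosetta Resolver, 1 for each probe set and array, whose background correction, scaling and reason for empty cells were not given in the sources used here. A deposited table of signed fold changes, in which folds that missed the methods' thresholds are written as 1, was not used. Values were converted to log2. The 3 rats at 100 mg/kg were compared with the 3 vehicle rats over the 21706 probe sets with a value in all 6 arrays, in limma 3.58.1 (R 4.3.3) with all 4 groups in 1 fit, which share the estimate of the spread, a variance trend and Benjamini-Hochberg adjustment over all probe sets (threshold 0.05). The fit left out empty values of the other doses. It was tested on simulated data. The limma p-values rest on the spread between rats within all 4 groups, 3 rats a group, and not on that of the 2 compared groups alone. The number of arrays limits the precision. Tables and plots used Python 3.11.15, pandas 2.3.3, NumPy 2.4.6, SciPy 1.17.1 and Matplotlib 3.10.9.

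A gene was represented by its brightest probe set over the 12 arrays. Of 29176 probe sets 19691 had 1 gene symbol, 424 several and 9061 none in the platform annotation, and symbols were updated through RefSeq GRCr8. Named are the genes that passed, the 12 largest differences in each direction (at or above the median level, unadjusted p under 0.05, no overlap), up to 4 genes of each of 41 gene lists by p, Cyp1a1, Cyp1a2, Ahr, Nqo1, Abcc3, Arnt and Nfe2l2, and the 6 of these with the widest range at 100 mg/kg. Members and lists were chosen with earlier results of these data known. Alternatives were other scalings, filters, variance models, sets of samples, an equal-variance t-test and leaving out each rat. The study names a t-test among its general statistics, and the error model of Resolver for the arrays, which was not repeated.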

Additional observations from a re-analysis of the deposited data

Results flagged for a closer look

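A pair of AhR-related genes had a signal at 100 mg/kg in probe sets outside the comparison, since vehicle rats had no value. Cyp1a1 had a mean log2 intensity of 4.33 over the 2 of 3 rats with a value at 100 mg/kg. Abcc3 had a mean of 5.67 over all 3 rats. An empty value is not a measured 0, so no fold or test is given for either gene.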

How the results depend on the processing

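Of 2 probe sets called at 100 mg/kg against vehicle, 1 was called without a variance trend (Gsta3), and 6 where every probe set with a value in each group was tested. Among the 6, Phf7, Fam107b and Fgfr2 had a value in only 1 vehicle rat. The equal-variance t-test called 1470 unadjusted (769 higher, 701 lower) and 0 after Benjamini-Hochberg adjustment. Leaving out 1 rat gave 1 to 7, with 1 where vehicle rat 1, treated rat 1 or treated rat 2 was omitted, and 7 without vehicle rat 3, whose levels of Sgk1 and Slc34a2 were nearest to the treated rats (adjusted p without it 0.0061 and 0.0104). With only the 2 groups fitted, 1 was higher (Gsta3) and 2 lower (RGD1309362 and Skil), and the adjusted p of Cyp1a2 was 0.0742. Cyp1a2 had an adjusted p of 0.266 without a variance trend. For 100 against 30 mg/kg, where 0 were called, scaling to a common 75th percentile gave 1, an adjusted p of at most 0.10 gave 1 and the equal-variance t-test, unadjusted, 1054. For 200 against 100 mg/kg the equal-variance t-test, unadjusted, gave 1200, and leaving out 1 rat 0 to 2 (2 without rat 2 at 100 mg/kg, 1 without rat 1 or rat 2 of the highest dose). The causes were not tested. Array scaling lowered the median of all genes from 0.011 to 0.0094 or 0.009. Of 169 genes named or given by the naming rule, 16 turned sign under at least 1 alternative, all with a nominal p above 0.05. Their differences without 1 rat ranged over Alas2 -0.39 to 0.65, Amy2a3 -0.38 to 1.31, Cd3e -0.20 to 1.09, Cpb1 -0.021 to 0.63, Csf3r -0.49 to 0.067, Hemgn -0.17 to 0.38, Mcm7 -0.71 to 0.093, S100a9 -0.012 to 0.92, Tat -0.11 to 0.58, Tek -0.0026 to 0.22, Gsto1 -0.11 to 0.061, Gsto2 -0.44 to 0.47, Mgst1 -0.094 to 0.017, Mgst3 -0.17 to 0.14, Srxn1 -0.50 to 0.13 and Cyp1b1 -0.35 to 0.30. With a floor Amy2a3 was -0.053 and Gsto2 0.028, and with array weights Gsto2 was 0.0049, Hemgn -0.024 and Cyp1b1 0.024. Medians of 18 of the 41 lists, of which the largest was 0.30, changed sign under at least 1 of 9 alternatives.

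The rat numbers were not taken as pairs of samples. Deviations of each dosed rat from its group mean were set across probe sets against those of the vehicle rat of the same number. Their correlations were low, -0.070 to 0.076 over the 3 doses. With the rat number as a replicate block, 2 probe sets were called at 100 mg/kg against vehicle and 0 in each comparison with a neighbouring dose. Each of the 3 rats at 100 mg/kg correlated best with the vehicle rat of its own number (0.066 to 0.076). No rat at 30 mg/kg did so, and at 200 mg/kg rat 1 did but rats 2 and 3 did not. The match at 100 mg/kg comes from the data and not from the design, and is not read as pairing.

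Limits are 3 rats a group, 12.1% empty values, an unknown background correction and a wide spread of dim probe sets. A gene that missed the threshold is not shown to be unaltered.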
